A study of Mus musculus with 7 samples.

Results

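Transcripts of 10 secreted ligands of the TGF-beta superfamily were followed in hearts whose cardiomyocytes were targeted for deletion of the kinase genes Akt1 and Akt2. The AKT proteins were not measured here. The members were Gdf15, Mstn, Inhbb, Tgfb1, Tgfb2, Tgfb3, Bmp4, Bmp6, Bmp7 and Bmp10, and they are 10 of the 22916 RefSeq genes that had a probe on the array. Every non-control probe whose accession mapped to a member was taken, which gave 13 probes, with 2 probes each for Tgfb1, Tgfb2 and Bmp4. The members were selected with the measured differences of this same comparison known. Their values are therefore a description, without a test. Where a member is said to be called or not, this too is a description.

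Each of the 7 samples was RNA from the heart apex of 1 male C57Bl/6 mouse, read on a single-colour Agilent array. The 3 double knockout mice (DKO) were homozygous for floxed Akt1 and floxed Akt2 and heterozygous for MHC-mercremer, a Cre recombinase that needs tamoxifen and is driven by the alpha myosin heavy chain promoter. The loxP sites flank exons 6 and 7 of Akt1 and exons 5 and 6 of Akt2. The 4 control mice were heterozygous for MHC-mercremer, with no floxed allele listed. At an age of 3 months, the mice of both groups were given hydroxytamoxifen on 5 days, at 500 µg per day, and their hearts were taken 10 days after induction, so the recombinase and the drug are common to both groups. The sample titles call the hearts of both groups untreated, and do not say which treatment is meant. The promoter confines recombination to cardiomyocytes, whereas the RNA came from every cell type of the apex. In such tissue RNA, fewer cells of a type and less RNA per cell cannot be told apart.

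TGF-beta superfamily ligands are made as precursors, cleaved and secreted as dimers. They bind pairs of type I and type II receptor kinases. TGF-beta and activin ligands signal mainly through Smad2 and Smad3, and bone morphogenetic proteins (BMPs) through Smad1, Smad5 and Smad9, while extracellular antagonists trap the ligands before they reach a receptor. Gdf15 is a divergent member that acts through GFRAL, a receptor of the hindbrain, and is known as a circulating marker of cardiac and cellular stress. In the heart, TGF-beta ligands are known for their part in fibrosis and BMPs for their part in development.

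Values are normalized log2 signals, in which a difference of 1 is a doubling. A probe's brightness depends on its own sequence, so levels were compared between mice and not between probes. All DKO signals of Akt2 were below every control signal, at 11.64, 11.67 and 11.61 in DKO hearts against 13.78, 13.70, 13.61 and 13.65 in control hearts for its brightest probe. The 3 Akt2 probes were lower in DKO by log2 differences of -2.05 ± 0.07, -2.29 ± 0.10 and -0.68 ± 0.12 (SE), and all 3 passed the test over all probes (limma, Benjamini-Hochberg adjusted p = 0.000203, 0.000295 and 0.0335). Both Akt1 probes missed the threshold, at 0.17 ± 0.07 and 0.47 ± 0.16 (limma, adjusted p = 0.199 and 0.139). Whether these probes fall in the deleted exons was not analysed here. One that lies elsewhere in the gene is no check of the deletion. An array had 50.9% to 55.7% of its probes well above background and 0 spots saturated. Precision is limited by the number of arrays. The 9 cardiomyocyte markers were all measured, with a summed log2 signal of 20.92 to 21.07 in DKO hearts and 20.93 to 21.02 in control hearts. The brightest genes weigh most in this sum. By gene, 3 were higher and 6 lower, with a median of -0.05, 0 called and 2 at an unadjusted p below 0.05 by limma. The lowest was Ryr2, at -0.38 ± 0.10 (limma, adjusted p = 0.0759). The arrays lay on 1 slide, with DKO replicates 1 and 2 and control replicate 2 in row 2, and DKO replicate 3 and control replicates 1, 3 and 4 in row 1. Any difference within row 1 thus has DKO replicate 3 as its only DKO heart. Within row 2, control replicate 2 is the only control heart.

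Of the 10 ligands, 8 had at least 1 probe well above background on at least 3 arrays, and 11 of the 13 probes met this filter. Among these 8, Gdf15 was higher and Bmp7 lower in DKO hearts by differences past the threshold of the fit over all genes, an adjusted p of 0.05. That is 1 ligand higher and 1 lower, beside 2.41% of all 23678 tested genes (14722 with a RefSeq symbol, the others under the array's own identifiers) called higher, 2.29% called lower and 4.7% called in all. By probe, 2 of the 11 were called, beside 4.4% of all probes. The groups did not overlap for 3 ligands (Gdf15, Tgfb2 and Bmp7), beside 25.7% of all genes. Since the members were chosen on this contrast, nothing is read from these counts. The difference was positive for 6 ligands and negative for 2, with a median of 0.15, beside a median of -0.02 over all genes. The plot of the signal of each mouse shows how unlike one another the 8 detected ligands were.

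**Figure D1:**
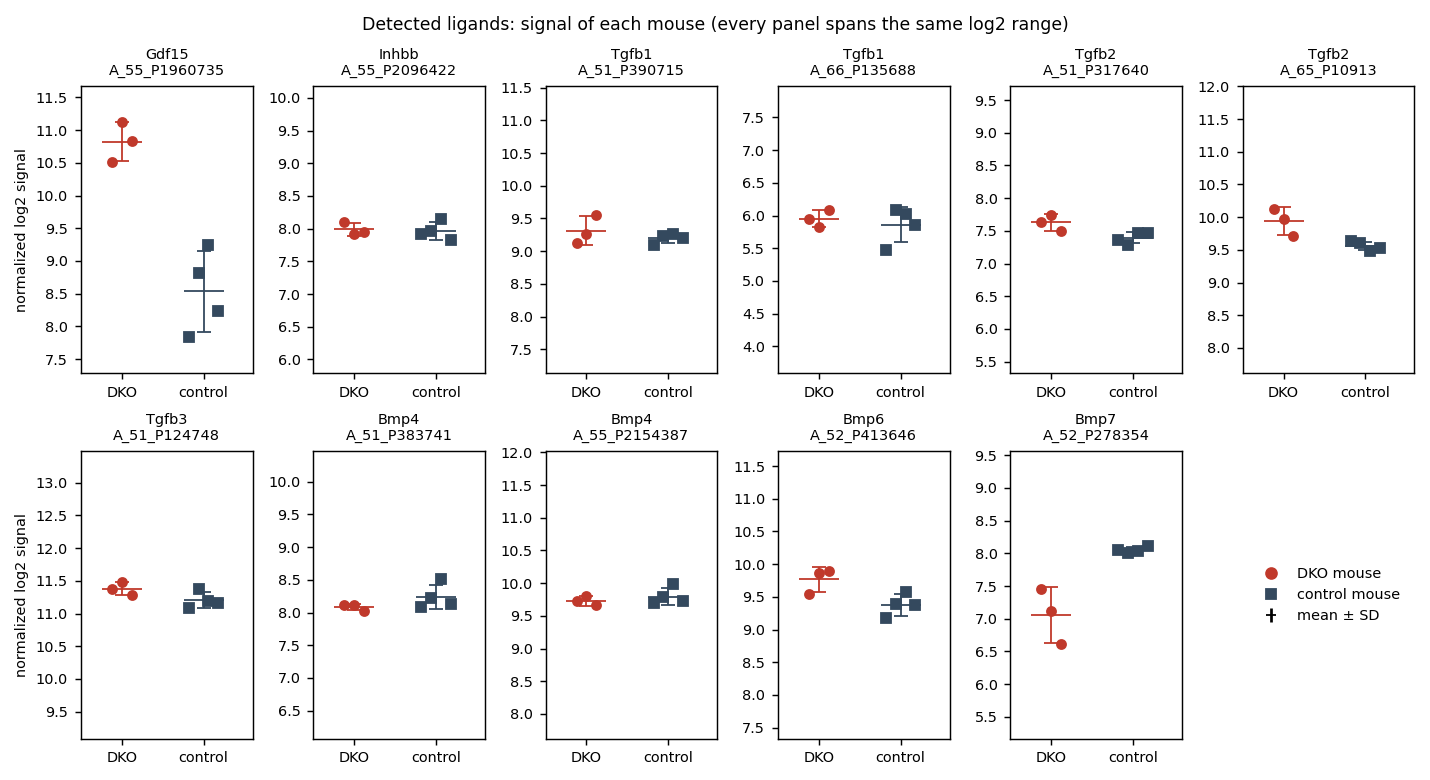
Normalized log2 signal of every detected ligand probe in each DKO mouse (circles, 3 mice) and each control mouse (squares, 4 mice), with the group mean and SD, every panel spanning the same log2 range. Gdf15 was higher in all 3 DKO mice and Bmp7 lower, while the group means of the other ligands differed by at most 0.39.

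Gdf15, the stress-responsive ligand, showed the largest difference of the 8. Its normalized log2 signal was 10.52, 11.12 and 10.83 in DKO hearts, against 7.84, 8.82, 9.25 and 8.24 in control hearts. Every DKO heart was above every control heart, and the lowest DKO value exceeded the highest control value by 1.28. Before normalization, the processed signal of the probe was 1330, 2110 and 2000 units in DKO hearts and 215, 449, 592 and 352 units in control hearts. The means were 10.83 ± 0.30 in DKO and 8.54 ± 0.62 in control (SD, n = 3 and 4), a log2 difference of 2.29 ± 0.34 (SE). This corresponds to 4.89-fold, with a 95% interval of 2.83 to 8.44, and stood 6th from the top among 23678 differences.

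Control hearts differed widely among themselves in Gdf15. Their values spanned 1.41 on the log2 scale, against 0.60 in DKO hearts. Among all tested genes, 83.1% had a smaller SD than Gdf15 in DKO hearts and 95.4% had a smaller SD in control hearts. Within slide row 1 the difference was 2.39 and within row 2 it was 2.00, and with row as a block it was 2.21 ± 0.39, where Gdf15 was no longer called. Leaving out 1 array gave 2.06 without control replicate 1 and up to 2.53 without control replicate 3. Gdf15 no longer passed the threshold when DKO replicate 1, 2 or 3 or control replicate 4 was left out, although the size of its difference changed little. Since Gdf15 was chosen on this contrast, a call kept or lost is a description and no test.

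RefSeq places 2 transcription starts at Gdf15, both on the minus strand of chromosome 8. The windows from 250 bases before to 50 bases after each start are printed 5′ to 3′ from the RefSeq promoter table of GRCm38.p6, because Gdf15 carries the largest difference. Those of Tgfb2 and Bmp6, the detected ligands next in size on the higher side, are given for comparison. Capitals mark matches, on either strand, to 3 short motifs: the E-box CACGTG, the Smad box GTCTG (written CAGAC on the other strand) and the ATF/CRE core TGACG (written CGTCA on the other strand).
Gdf15, upstream start, chr8:70632407-70632706, minus strand: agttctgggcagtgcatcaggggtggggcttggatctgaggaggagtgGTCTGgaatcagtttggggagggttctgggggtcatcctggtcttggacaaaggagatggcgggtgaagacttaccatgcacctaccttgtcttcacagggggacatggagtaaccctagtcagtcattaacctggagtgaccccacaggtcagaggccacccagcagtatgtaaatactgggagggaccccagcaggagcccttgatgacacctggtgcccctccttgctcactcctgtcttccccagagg
Gdf15, downstream start, chr8:70632046-70632345, minus strand: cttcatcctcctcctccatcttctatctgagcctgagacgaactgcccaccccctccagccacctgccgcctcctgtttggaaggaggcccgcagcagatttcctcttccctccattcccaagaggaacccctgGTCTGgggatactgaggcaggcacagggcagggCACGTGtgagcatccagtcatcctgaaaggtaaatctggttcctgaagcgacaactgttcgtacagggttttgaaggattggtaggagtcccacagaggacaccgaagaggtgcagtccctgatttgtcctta
Tgfb2, chr1:186705940-186706239, minus strand: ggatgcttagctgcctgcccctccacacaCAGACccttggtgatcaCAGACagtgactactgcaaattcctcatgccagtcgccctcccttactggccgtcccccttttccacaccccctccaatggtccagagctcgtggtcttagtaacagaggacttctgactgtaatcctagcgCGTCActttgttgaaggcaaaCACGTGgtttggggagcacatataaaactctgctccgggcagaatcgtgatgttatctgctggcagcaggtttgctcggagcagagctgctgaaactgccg
Bmp6, chr13:38345466-38345765, plus strand: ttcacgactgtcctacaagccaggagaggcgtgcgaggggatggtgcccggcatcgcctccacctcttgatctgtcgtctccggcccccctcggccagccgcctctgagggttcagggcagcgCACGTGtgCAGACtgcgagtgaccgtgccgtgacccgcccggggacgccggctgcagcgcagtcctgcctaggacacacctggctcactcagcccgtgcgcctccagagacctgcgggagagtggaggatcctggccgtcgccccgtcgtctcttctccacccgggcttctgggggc

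Of the 10 members, 8 had a window in the table, 9 windows in all, and Bmp7 and Tgfb3 had none there. Counted from 1 at the 5′ end, the upstream Gdf15 window held a Smad box at position 49, and the downstream one a Smad box at 135 and an E-box at 168. The Tgfb2 window held Smad boxes at 30 and 47, an ATF/CRE core at 179 and an E-box at 200. The Bmp6 window held an E-box at 124 and a Smad box at 132, and the Bmp4 window an E-box at 63. The E-box occurred in 4 of the 9 windows and in 7.15% of all 32851 RefSeq promoter windows of this length. The Smad box occurred in 5 of the 9 and in 49.6% of all windows, and the ATF/CRE core in 2 of the 9 and in 20.8%. The FoxO core TGTTTAC, in 3.65% of all windows, and the ATF4 and C/EBP composite TGATGNAA, in 3.97%, had 0 matches in the 9 windows on either strand. Such matches describe letters only, and their absence covers only these windows.

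The 3 TGF-beta isoforms, the ligands best known for driving matrix production, differed little. Tgfb2 had 10.13, 9.97 and 9.71 in DKO hearts, against 9.63, 9.60, 9.49 and 9.53 in control hearts, by its brighter probe. All DKO values were above all control values, with a gap of 0.07. The difference was 0.37 ± 0.11 (SE), or 1.29-fold with a 95% interval of 1.08 to 1.55. The dimmer Tgfb2 probe gave 7.64, 7.75 and 7.50 in DKO hearts, against 7.36, 7.29, 7.47 and 7.47 in control hearts. Its groups also stayed apart, by 0.02, with a difference of 0.23 ± 0.09. For both Tgfb2 probes the differences were smaller in slide row 1, at 0.16 and 0.06, than in row 2, at 0.44 and 0.40.

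Tgfb3 gave 11.38, 11.48 and 11.28 in DKO hearts, against 11.09, 11.37, 11.19 and 11.16 in control hearts. The groups overlapped, and the difference was 0.18 ± 0.09, or 1.13-fold with a 95% interval of 0.969 to 1.32. Tgfb1, the isoform found in most adult tissues, gave 9.12, 9.26 and 9.56 in DKO hearts, against 9.10, 9.23, 9.26 and 9.20 in control hearts by its brighter probe. DKO replicate 3 alone lay above the control values. The difference was 0.12 ± 0.12, and -0.01 without that mouse. It was 0.38 within slide row 1, where that mouse was the only DKO heart, and -0.04 within row 2. The dimmer Tgfb1 probe also overlapped between groups, with a difference of 0.09 ± 0.16. In the gene order of GRCm38.p6, 25 tested genes lie between Tgfb1 and Akt2 on chromosome 7, and 139 between Tgfb3 and Akt1 on chromosome 12.

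Among the BMPs, Bmp7 went the opposite way to Gdf15. Bmp7, a BMP known from kidney and skeletal development, gave 7.45, 7.12 and 6.61 in DKO hearts, against 8.05, 8.0, 8.03 and 8.12 in control hearts. Every DKO heart was below every control heart, with a gap of 0.55. The means were 7.06 ± 0.42 in DKO and 8.05 ± 0.05 in control (SD, n = 3 and 4), a difference of -0.99 ± 0.18 (SE), or 1.98-fold lower. Unlike Gdf15, Bmp7 varied mainly among DKO hearts. Its values spanned 0.84 in DKO hearts and 0.12 in control hearts, where only 6.9% of all genes had a smaller SD. The difference was -1.46 within slide row 1, where DKO replicate 3 was the only DKO heart, and -0.71 within row 2. With row as a block the difference was -1.11 ± 0.19, where Bmp7 was no longer called. It was -0.76 without DKO replicate 3, the mouse with the lowest value, and -1.18 without DKO replicate 1. Bmp7 missed the threshold without DKO replicate 2 and without any of the 4 control replicates.

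Bmp6, a ligand of endothelial cells known in the liver for inducing the iron hormone hepcidin, gave 9.55, 9.87 and 9.89 in DKO hearts, against 9.17, 9.39, 9.57 and 9.38 in control hearts. The groups touched, since DKO replicate 1 lay 0.02 below control replicate 3. The difference was 0.39 ± 0.13, or 1.31-fold with a 95% interval of 1.07 to 1.61. Bmp4, a ligand of cardiac development, gave 9.72, 9.81 and 9.66 in DKO hearts, against 9.69, 9.79, 9.98 and 9.72 in control hearts by its brighter probe. The groups overlapped for both Bmp4 probes, with differences of -0.06 ± 0.09 and -0.15 ± 0.11. For the brighter probe the 95% interval ran from 0.819-fold to 1.12-fold.

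Inhbb encodes the activin beta B subunit. It gave 8.10, 7.91 and 7.95 in DKO hearts, against 7.91, 7.97, 8.15 and 7.82 in control hearts. The groups overlapped, with a difference of 0.03 ± 0.10 and a 95% interval from 0.862-fold to 1.20-fold.

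Mstn (myostatin, a brake on skeletal muscle growth) and Bmp10 (a ligand made by the adult right atrium) were not well above background on any of the 7 arrays. The Mstn probe read 2.82, 2.34 and 2.55 in DKO hearts, against 2.71, 3.41, 3.99 and 2.49 in control hearts. The Bmp10 probe read 2.56, 2.71 and 2.67 in DKO hearts, against 2.40, 2.35, 3.20 and 1.99 in control hearts. All lay under the lowest signal counted as well above background, which ranged from 4.18 to 4.76 over the arrays, so no fold is given. Of 10 skeletal muscle markers, 6 passed the filter, with a median difference of 0.05, and on no array were Myh1, Myh2 or Actn3 well above background. Of 8 atrial markers, 6 passed, with a median of -0.18. Of these, 3 were higher and 3 lower. Nppa averaged 17.13 in DKO hearts and 16.31 in control hearts, a difference of 0.82 ± 0.21 that did not pass (limma, adjusted p = 0.0788). The ion channel gene Kcnj3 was called lower (-0.89 ± 0.11, limma, adjusted p = 0.0122). Myl7 had the lowest difference, -1.09 ± 0.47 (limma, adjusted p = 0.199), with a DKO mean of 4.19, near background. Mybphl, which did not pass the filter, was not well above background on any array.

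**Figure D2:**
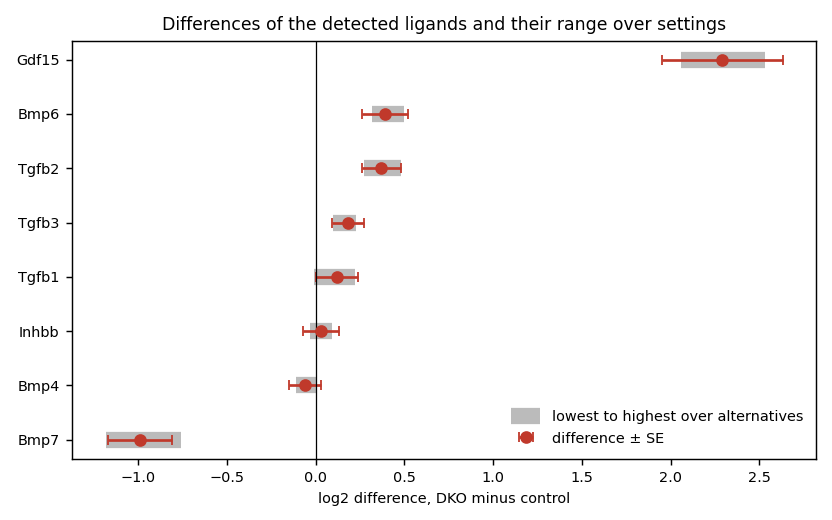
Log2 difference, DKO minus control, of the 8 detected ligands by their brightest probe (points) with its SE (lines), over the lowest to highest value under the alternative settings (grey bars). Gdf15 ranged from 2.06 to 2.53 and Bmp7 from -1.18 to -0.76, while the bars of Inhbb and Tgfb1 crossed 0.

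The plot of differences sets these ligands on a common scale. Gdf15 and Bmp7 lay farther from 0 than any of the other 6 under each of the alternatives drawn as grey bars, and Bmp6 and Tgfb2 stayed above 0, at 0.32 to 0.50 and 0.27 to 0.48.

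The rest of the pathway was described through 8 lists of other genes, 128 in all, of which 100 were tested. The lists were chosen with earlier results of these data known. In these, 4 genes were called, all higher in DKO, which is 4% beside 4.7% of all genes. The share is near that of all genes and is no result about the pathway. At an unadjusted p below 0.05 there were 26 of the 100, beside 25.5% of all genes. The difference was positive for 64 and negative for 36, with a median of 0.05, while 46.9% of all genes were positive.

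Among 23 other ligands, 12 were tested, 5 were higher and 7 lower, and 0 were called, with 4 at an unadjusted p below 0.05 by limma and a median of -0.05. The nearest to a call was Inha, the inhibin alpha subunit that opposes activin, at 6.71, 6.54 and 6.83 in DKO hearts against 8.23, 7.21, 7.57 and 7.43 in control hearts. The groups were apart, and the difference was -0.92 ± 0.23 (limma, adjusted p = 0.0732). Bmp8a differed by -0.65 ± 0.19 and the oocyte factor Gdf9 by 0.31 ± 0.10 (limma, adjusted p = 0.0983 and 0.123). Activin beta A, encoded by Inhba, differed by -0.08 ± 0.13 and Bmp2 by 0.30 ± 0.15.

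Of the receptors and co-receptors, 18 were tested, and 0 were called, with 3 at an unadjusted p below 0.05 by limma and a median of -0.07. Acvr2b, the activin type II receptor that also binds myostatin, differed by 0.30 ± 0.08, and Hjv (hemojuvelin, the BMP co-receptor of iron sensing) by -0.56 ± 0.15 (limma, adjusted p = 0.0704 and 0.0827). The TGF-beta receptors Tgfbr1 and Tgfbr2 differed by -0.05 ± 0.24 and 0.04 ± 0.12. Gfral, the receptor of Gdf15, was not well above background on any array. Its co-receptor Ret differed by -0.09 ± 0.11.

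Of 16 tested Smads and Smad regulators, 12 were higher and 4 lower, 0 were called, 1 had an unadjusted p below 0.05 by limma, and the median was 0.06. Smad3, an effector of TGF-beta, differed by 0.33 ± 0.10 by its brighter probe and 0.16 ± 0.10 by the other, and Smad2 by -0.19 ± 0.10. The inhibitory Smads, Smad6 and Smad7, differed by 0.19 ± 0.11 and 0.05 ± 0.13. Of 16 tested genes of latency, processing and activation, 8 were higher and 8 lower, 0 were called, 5 had an unadjusted p below 0.05 by limma, and the median was -0.01. Itgb6, an integrin subunit that helps release TGF-beta from its latent complex, differed by -0.56 ± 0.13 (limma, adjusted p = 0.0546). The proprotein convertase Pcsk5 differed by 0.60 ± 0.15 and the latent TGF-beta binding protein Ltbp4 by 0.30 ± 0.09 (limma, adjusted p = 0.072 and 0.105).

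Most tested extracellular antagonists had a positive difference. Of 13 tested, 12 were higher and 1 lower, with a median of 0.18, beside 46.9% of all genes positive. In this list 2 were called higher, beside 2.41% of all genes, and 5 had an unadjusted p below 0.05 by limma, beside 25.5%. Some differences were near 0, such as 0.01 ± 0.10 for Bgn, 0.03 ± 0.07 for Dand5 and 0.04 ± 0.10 for Twsg1. Wfikkn2, which binds and blocks myostatin and its relative Gdf11, gave 8.99, 9.09 and 9.10 in DKO hearts, against 8.40, 8.56, 8.39 and 8.37 in control hearts. Every DKO heart was above every control heart, and Wfikkn2 rose by 0.63 ± 0.08, or 1.55-fold (limma, adjusted p = 0.0124). Its call was kept with slide row as a block (limma, adjusted p = 0.0476) and lost without DKO replicate 1, DKO replicate 2 or control replicate 4 (limma, adjusted p up to 0.054) and with no filter on dim probes (0.0721). Gdf11, like Mstn, was not well above background on any array.

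Crim1, a membrane protein that tethers BMPs, gave 11.18, 10.94 and 11.16 in DKO hearts, against 10.61, 10.69, 10.70 and 10.61 in control hearts. It rose by 0.44 ± 0.08, or 1.36-fold (limma, adjusted p = 0.0368), with no overlap between groups. Its call was lost whichever array was left out, with a limma adjusted p of up to 0.121 without DKO replicate 1. It was also lost with slide row as a block, with normexp and with no filter on dim probes (limma, adjusted p = 0.0933, 0.0737 and 0.158). Fst, the activin trap follistatin, was well above background in all 3 DKO hearts but in 1 of the 4 control hearts. It read 4.99, 5.60 and 6.04 in DKO hearts, against 4.35, 4.43, 4.91 and 3.82 in control hearts. Its difference of 1.17 ± 0.31 did not pass (limma, adjusted p = 0.0822), is set against control values near background, and was 0.46 with normexp. Its relative Fstl3 differed by 0.49 ± 0.13 and the BMP antagonist Nbl1 by 0.26 ± 0.11 (limma, adjusted p = 0.0866 and 0.196).

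Genes induced through Smad2 and Smad3 were 14 higher and 4 lower of 18 tested, with a median of 0.15, 1 called higher and 5 at an unadjusted p below 0.05 by limma. Of all genes, 46.9% were positive, 2.41% were called higher and 25.5% had such an unadjusted p. The called gene was Ccn2, a matrix-associated growth factor also known as CTGF. It gave 14.52, 14.56 and 14.32 in DKO hearts, against 12.22, 12.48, 12.74 and 12.46 in control hearts. The groups were far apart, and Ccn2 rose 3.98-fold, by 1.99 ± 0.13 (limma, adjusted p = 0.00312), a call kept whichever array was left out. Junb, a subunit of the transcription factor AP-1, differed by 0.64 ± 0.18, or by 1.44 ± 0.32 by its dimmer probe (limma, adjusted p = 0.0894 for the brighter probe), and Tagln, a smooth muscle protein, by 0.36 ± 0.11 (limma, adjusted p = 0.115). Acta2, a smooth muscle actin, went the other way, with the lowest difference of this list, -0.41 ± 0.14 (limma, adjusted p = 0.128). The fibrillar collagens did not pass: Col1a1 differed by 0.09 ± 0.11, Col1a2 by 0.07 ± 0.21 and Col3a1 by 0.20 ± 0.16. Postn, an indicator of activated fibroblasts, differed by 0.05 ± 0.12.

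Of 10 tested genes induced through Smad1 and Smad5, 8 were higher and 2 lower, with a median of 0.28, 1 called higher and 3 at an unadjusted p below 0.05 by limma. The shares over all genes were 46.9% positive, 2.41% called higher and 25.5% at such an unadjusted p. The called gene, the transcription factor Atoh8, gave 7.75, 7.62 and 7.60 in DKO hearts, against 7.11, 7.28, 7.07 and 7.06 in control hearts. With no overlap it rose by 0.52 ± 0.09, or 1.44-fold (limma, adjusted p = 0.0257). Of the 7 fits with 1 array left out, 2 kept the call, those without control replicate 1 or 2, and the limma adjusted p reached 0.0909 without DKO replicate 1. The call was also lost with slide row as a block, with normexp and with no filter on dim probes (limma, adjusted p = 0.0628, 0.0973 and 0.119). The inhibitor of differentiation genes Id1, Id2 and Id3, classical BMP targets, differed by 0.36 ± 0.16, 0.27 ± 0.13 and 0.29 ± 0.08 (limma, adjusted p = 0.200, 0.26 and 0.075).

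Most markers of vessel cells and fibroblasts had a positive difference, as most antagonists and these target genes did, beside 46.9% of all genes. Of 9 endothelial markers 9 were higher, with a median of 0.20 and a summed log2 signal of 16.04 to 16.05 in DKO hearts against 15.77 to 16.02 in control hearts. Of 7 mural markers 6 were higher, with a median of 0.30 and sums of 15.28 to 15.30 in DKO hearts against 14.95 to 15.08 in control hearts. Of 8 fibroblast markers 7 were higher, with a median of 0.18 and sums of 16.71 to 16.94 in DKO hearts against 16.63 to 16.72 in control hearts. All markers of these 3 lists passed the filter. Of them only Myh11, a smooth muscle myosin, was called (log2 difference 0.63 ± 0.14, limma, adjusted p = 0.0487), beside 4.7% of all genes. The fibroblast list shares Dcn with the antagonists and Col1a1 and Col1a2 with the targets of Smad2 and Smad3. Macrophage markers had a median of 0.04. The part of these cell types in the values of the ligands, antagonists and targets was not tested.

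**Figure D3:**
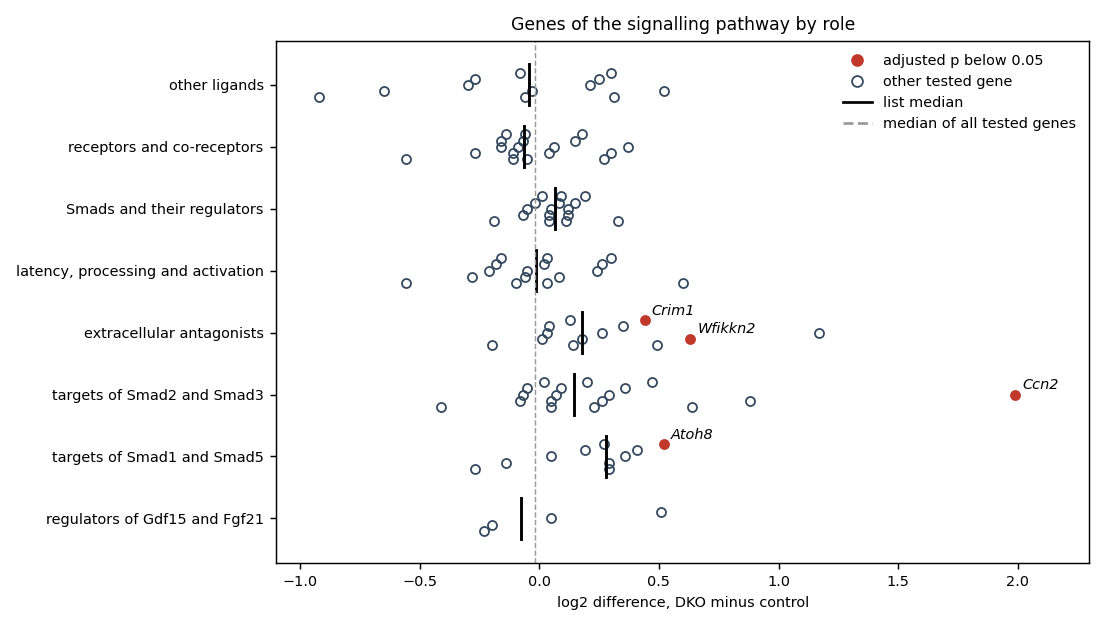
Log2 difference, DKO minus control, of each tested pathway gene by role, with called genes filled, list medians as black bars and the median of all 23678 genes (-0.02) dashed. Ccn2 lay at 1.99, and the list medians ran from -0.08 for the regulators of Gdf15 to 0.28 for targets of Smad1 and Smad5.

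The plot of pathway genes by role shows most genes close to 0 in every list, with the 4 called genes on the higher side. Known regulators of Gdf15 and its fellow stress hormone Fgf21 formed the last list, with 4 tested and a median of -0.08. In this list 0 genes were called, and 0 had an unadjusted p below 0.05 by limma. Atf4 and Ddit3, transcription factors of the integrated stress response, differed by 0.05 ± 0.23 and -0.20 ± 0.12. Trp53, which encodes p53, differed by -0.23 ± 0.13 and the immediate early gene Egr1 by 0.51 ± 0.31. The translation of Atf4 and the stability of p53 were not measured. Fgf21 was not well above background on any array.

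Likeness of profile was measured as the root mean square, over the 7 arrays, of the difference between 2 genes' log2 signals, each taken relative to its own control mean. Nearest to Gdf15 were the secreted ribonuclease Rnase1 (0.369), Ccn2 (0.379), Bex1 (0.422), the beta myosin heavy chain Myh7 (0.456) and Sdf2l1, a protein of the endoplasmic reticulum (0.524). All 5 were higher in every DKO heart than in any control heart. Their control values were less scattered than those of Gdf15. Control replicate 3, the control heart with most Gdf15, was also the highest control for all 5. Rnase1 was at 5.47 there, against 4.46 to 4.67 in the other controls, and Sdf2l1 at 9.08, against 8.19 to 8.79. Control replicate 1, the lowest for Gdf15, was also the lowest for Ccn2 and Sdf2l1.

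Nearest to Bmp7 were the small heat shock protein gene Hspb3 (0.104), the corepressor gene Rcor2 (0.154), the clock gene Per3 (0.156), Rnft2 (0.185) and Rgn (0.187). Hspb3 gave 11.01, 10.83 and 10.47 in DKO hearts, against 11.77, 11.86, 11.76 and 11.95 in control hearts. As in Bmp7, the lowest value was that of DKO replicate 3 and the highest DKO value that of replicate 1, an order that Per3, Rcor2, Rnft2 and Rgn also had. The plot of nearest profiles shows both patterns array by array. These genes were picked for their likeness over the same arrays, so their differences are a description.

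**Figure D4:**
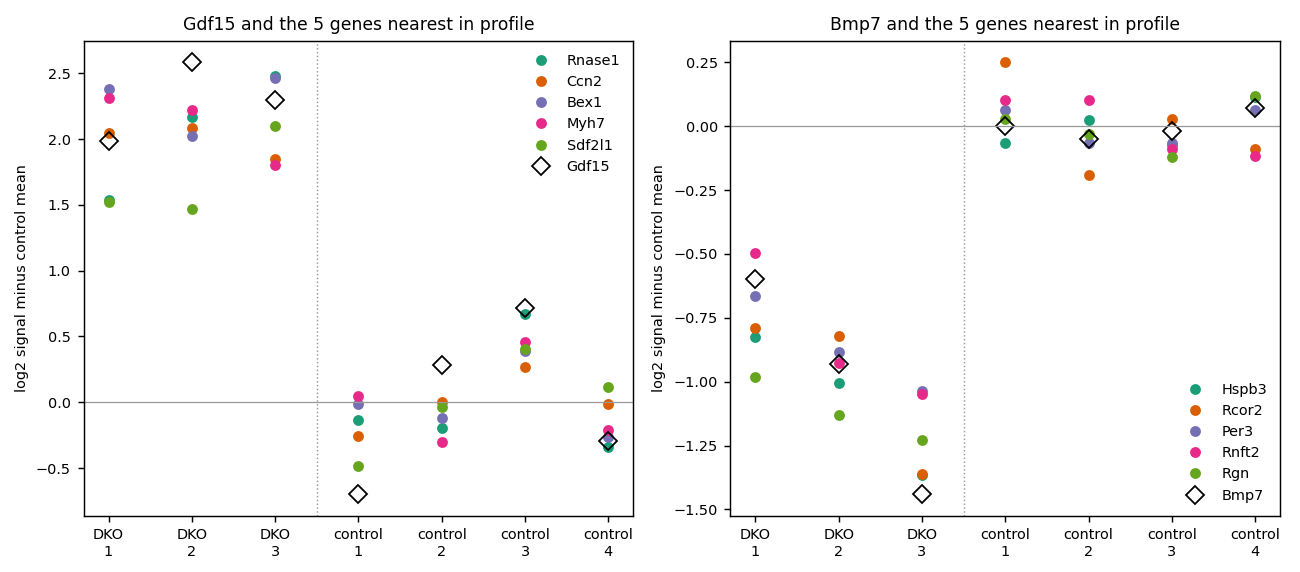
Log2 signal minus each gene's control mean in the 3 DKO and 4 control mice, for Gdf15 (left, diamonds) and Bmp7 (right, diamonds) and the 5 genes nearest to each (circles). Gdf15 varied most among the control mice and Bmp7 among the DKO mice, where DKO replicate 3 was lowest.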

How the data were processed

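The authors quantified the scanner images with Feature Extraction 12.0.3.1 (protocol GE1_1200_Jun14) and placed the probes on mm9, per the file headers. Spot signals were deposited as linear intensity after background subtraction, with flags for outliers and for signals well above background. A further table deposited by the authors gives log2 values, which matched quantile-normalized values centred on each probe's median (r from 0.998 to 0.9989), and served as an alternative. Its software was not given in the sources used here, and its column medians were 0.

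From the intensities, outlier and control spots were left out, log2 was taken, and each array's 75th percentile was subtracted, with their mean of 9.14 added back. Probes well above background on at least 3 of 7 arrays were kept, named by accession through a RefSeq table of GRCm38.p6 (32994 of 56605 probes matched), and the kept probe with the highest mean stood for its gene. That left 23678 entries, 14722 with a RefSeq symbol and the others under the file's own identifier. All are called genes in the counts and shares. They were tested with limma 3.58.1 in R 4.3.3 (lmFit, eBayes, group as the single term, two-sided) with Benjamini-Hochberg adjustment over all genes at 0.05, and 30466 probes in the same way. Intervals are 95% intervals of the fitted difference, and SEs are limma's. The labels describe each array as 1 mouse.

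The members and lists were chosen with earlier results of these data known. Genes named are all members, Akt1 and Akt2, in each list every called gene and up to 3 further genes with the smallest p, and the 5 genes nearest to Gdf15 and to the member with the most negative difference. Other genes of a list (Inhba, Bmp2, Tgfbr1, Tgfbr2, Ret, Smad6, Smad7, Col1a1, Col1a2, Col3a1, Postn, Id2, Atf4) were added for their role after their values were seen. A gene that this rule names is not reported here. One listed receptor gene found no match in the RefSeq table. Alternatives were quantile normalization, normexp on the median spot signal (the mean signal that was planned is not in the files), no filter, a filter on all 7 arrays, the authors' table, the mean of a gene's probes, array weights, a block for slide row or for the replicate number, and each array left out.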

Additional observations from a re-analysis of the deposited data

Results flagged for a closer look

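Among 47 groups of 4 control hearts examined for a single mouse far from the others, 2 stood out by Dixon's ratio of gap to range, where chance gives about 1 in 20. Wfikkn2 was highest in control replicate 2, at 8.56 against 8.37 to 8.40 in the other control hearts, a gap of 0.844 of the range. Fstl3 was lowest in control replicate 4, at 8.62 against 8.83 to 8.84 in the other control hearts, a gap of 0.956 of the range. None of the 8 detected ligands met this criterion, and the DKO group of 3 was too small to examine.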

How the results depend on the processing

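The Gdf15 difference stayed between 2.06 and 2.53 under all 16 alternatives, and no detected ligand reversed beyond its spread. The counts moved far more. Against 1114 genes called in the report, totals were 555 with normexp, 121 with no filter on dim probes, 1680 with array weights, 288 with slide row as a block and 160 to 1127 with 1 array left out. Against 1339 probes, the totals in this order were 678, 139, 2014, 321 and 218 to 1098. Against 4 pathway genes they were 2, 1, 10 (8 higher and 2 lower), 2 and 1 to 4. With the replicate number as a block, 1 gene, 2 probes and 0 pathway genes were called. That fit spends more terms on the same 7 arrays, which lowers its power, and control replicate 4 has no DKO partner in it. Its Gdf15 difference was 2.19 ± 0.24 (SE). How much of the fall in calls comes from the added terms was not tested. The labels link same-numbered mice only by the number, and do not say whether they were handled together. The correlations of their deviations were 0.129, 0.007 and 0.033, beside -0.174 to 0.171 for differently numbered mice. Whether the pairs are real was not tested. Gdf15 and Bmp7 were chosen on this contrast, so their calls are a description and no test. Both were called under quantile normalization, normexp, array weights, the authors' values, the filter on all 7 arrays and averaged probes. Neither was called with no filter, with either block, or without DKO replicate 2 or control replicate 4. Only Bmp7 was called without DKO replicate 1 or 3, and only Gdf15 without control replicate 1, 2 or 3. The cause was not tested.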
